A study of Mus musculus with 4 samples.

Results

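The cathepsins examined here are 10 genes of mouse liver tumour tissue, Ctsa, Ctsb, Ctsc, Ctsd, Ctse, Ctsg, Ctsh, Ctsl, Ctss and Ctsz, chosen by name and all found among the 17813 genes of the table. Their mRNA was described across classes of single cells called by marker genes. The tissue came from C57BL/6 mice aged 5 months, 2 labelled Miz1F/F and 2 labelled Miz1_delta_hep. All 4 samples had been given the carcinogen DEN (25 mg/kg, intraperitoneal) at week 2 after birth and then CCl4 (0.5 ml/kg, intraperitoneal) each week, so no untreated liver is part of the data. Livers were digested to single cells and sequenced from the 3′ end on the 10x Chromium platform. The Cre driver behind the second genotype is not given in the sources used here.

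Cathepsins are proteases of the lysosome and of secretory granules. Most of them (Ctsb, Ctsc, Ctsh, Ctsl, Ctss, Ctsz) are cysteine proteases of the papain family, Ctsd and Ctse are aspartic proteases, and Ctsa (a carboxypeptidase) and Ctsg (a granule protease of myeloid cells) are serine proteases. In liver they serve protein turnover in hepatocytes, degradation of engulfed material in the resident macrophages (Kupffer cells), and, in antigen-presenting cells, cleavage of the invariant chain (Cd74) that guards MHC class II. Their activity is held in check by cystatins, stefins and serpins.

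Several lysosomal genes carry the CLEAR element, a palindrome around the letters CACGTG that is read by the transcription factors TFEB and TFE3, and many genes of myeloid cells carry a site for PU.1 with the core GAGGAAGT. RefSeq promoter windows (GRCm38.p6, 250 bases before to 50 bases after a start) were found for 7 of the 10 genes, in 8 windows. The motifs were searched on both strands. The full CLEAR palindrome (0.326% of all windows) stood in none of the 8. TCACGTGA, the central part of the CLEAR element, stood in windows of 2 genes (Ctsa and Ctsd) and in 0.974% of all 32851 windows. The shorter CACGTG, which is contained in TCACGTGA, stood in windows of Ctsa, Ctsd and Ctsl and in 7.15% of all windows. GAGGAAGT stood in windows of Ctsc and Ctss and in 3.2% of all windows. The 4 windows with the longer motifs are shown because these genes were among those high in the macrophage classes. They run 5′ to 3′ on the gene's strand and end 20 bases after the start. Capitals mark the CLEAR motif (for Ctsd also a single CACGTG) or the reverse complement of the PU.1 core. A match is a run of letters, not a bound site.
Ctsa, second start, chr2:164833523-164833792 (+): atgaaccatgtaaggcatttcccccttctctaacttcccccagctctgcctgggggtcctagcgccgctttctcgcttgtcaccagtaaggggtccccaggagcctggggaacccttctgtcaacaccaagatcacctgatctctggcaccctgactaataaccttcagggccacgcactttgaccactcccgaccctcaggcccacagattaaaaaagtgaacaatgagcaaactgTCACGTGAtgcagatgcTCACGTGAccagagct
Ctsd, chr7:142387808-142388077 (-): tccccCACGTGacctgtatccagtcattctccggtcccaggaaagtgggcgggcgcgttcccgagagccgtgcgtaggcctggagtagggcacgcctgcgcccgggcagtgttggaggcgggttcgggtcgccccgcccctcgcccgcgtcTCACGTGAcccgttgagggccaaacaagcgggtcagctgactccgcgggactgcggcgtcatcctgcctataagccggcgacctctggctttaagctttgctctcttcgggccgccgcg
Ctsc, chr7:88277835-88278104 (+): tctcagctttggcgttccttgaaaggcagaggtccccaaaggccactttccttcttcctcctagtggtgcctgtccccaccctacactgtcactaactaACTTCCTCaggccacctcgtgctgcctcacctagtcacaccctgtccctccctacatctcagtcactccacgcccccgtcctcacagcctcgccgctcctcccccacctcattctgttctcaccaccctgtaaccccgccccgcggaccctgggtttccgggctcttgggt
Ctss, chr3:95526536-95526805 (+): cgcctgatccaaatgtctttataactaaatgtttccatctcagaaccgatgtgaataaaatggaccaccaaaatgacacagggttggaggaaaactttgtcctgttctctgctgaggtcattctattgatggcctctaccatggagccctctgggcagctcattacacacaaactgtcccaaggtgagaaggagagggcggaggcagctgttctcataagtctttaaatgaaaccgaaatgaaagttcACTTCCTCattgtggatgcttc

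In the Ctsa window CACGTG begins at positions 239 and 256, counted from 1 at the 5′ end, on the 2 sides of the start. In the Ctsd window it begins at positions 6 and 153. In Ctsl, a CACGTG without the flanking letters begins at position 15.

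The table holds 24802 cells and 65920312 UMIs (molecules counted by a barcode of their own). The cell barcodes end in 4 suffixes, here called barcode sets 1 to 4, with 2574, 6224, 4825 and 11179 cells and a median of 2648, 906, 1037 and 1859 UMIs per cell. Nothing in the sources used here maps a set to a sample, so the genotypes were not compared, no p-value was computed, and the table counts as 1 sample. The sets are given as separate values, and 373 barcode sequences (1.53%) occurred in more than 1 set. Cells were clustered without any cathepsin gene, which gave 26 clusters. Marker genes named 18 classes, written "-like" below. A further cluster of 394 cells with markers of both Kupffer and endothelial cells stayed unnamed. Of its own markers, the Kupffer cell-like class was the highest class for 9 of 10, the endothelial cell-like class for 12 of 12 and the plasmacytoid dendritic cell-like class for 8 of 10. This held for fewer markers in the monocyte/macrophage-like (5 of 16), neutrophil-like (4 of 12) and Krt8/Sox9 epithelial (2 of 7) classes. In the dendritic cell-like class it held for Flt3, Cd209a, Itgax, Xcr1, Ccl22 and Napsa. It did not hold there for Zbtb46, H2-DMb2, Clec10a, Clec9a, Irf8, Fscn1 and Ccr7. For every cell, the UMIs of a gene were expressed per 1000000 UMIs of that cell (CPM), and these values were averaged over the cells of 1 class in 1 set. Classes with fewer than 20 cells in a set have no value there. A UMI is counted once per molecule at the 3′ end and is not scaled to gene length, so levels of different genes are compared on the scale of molecules. Fewer expressing cells and less mRNA per cell are both contained in a class mean.

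The level of the cathepsins differed widely between classes, and Ctsb, Ctsd, Ctsl or Ctss had the highest median level in every class. In the Ngp/Camp neutrophil-like class Ctsd (median 341 CPM) and Ctsg (332 CPM) were close, and Ctsg led in 2 of its 4 sets. The summed level of the 10 genes had a median over sets of 15839 CPM (12967 to 17296) in Kupffer cell-like cells, 8597 CPM in monocyte/macrophage-like cells, 5490 CPM in plasmacytoid dendritic cell-like cells and 4278 CPM in endothelial cell-like cells. It was 2989 CPM in neutrophil-like cells, 2597 CPM in dendritic cell-like cells and 1442 CPM in hepatocyte-like cells. The lowest sum among classes with at least 3 sets was 766 CPM, in plasma cell-like cells. For 8 of the 10 genes the class with the highest median was also the highest in every set in which it had a value. These were Ctsb, Ctsc and Ctsd (Kupffer cell-like), Ctss and Ctsz (monocyte/macrophage-like), Ctsh (plasmacytoid dendritic cell-like), Ctsl (endothelial cell-like) and Ctsg (the neutrophil-like cluster with Ngp and Camp). Without cells of more than 3 times the median UMIs the count fell to 5 (Ctsb, Ctsc, Ctsh, Ctsl and Ctsz).

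**Figure D1:**
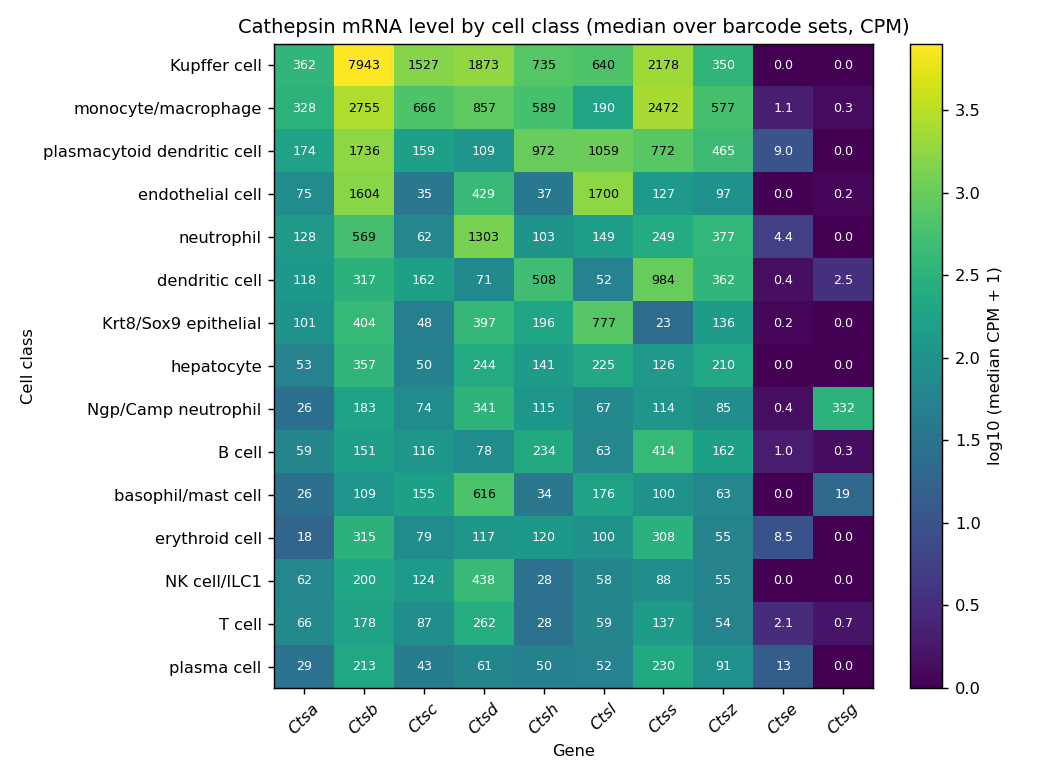
Median level over barcode sets (CPM, printed in each cell, coloured on a log10 scale) of the 10 cathepsin genes (columns) in the 15 classes with at least 3 sets (rows, ordered by the summed level). Ctsb in Kupffer cell-like cells (7943 CPM) is the highest value, Ctsl stands out in endothelial cell-like cells (1700 CPM), and Ctsg is above 100 CPM in 1 class.

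Ctsb (chr14:63122462-63145923, plus strand, GENCODE vM21 on GRCm38), an endopeptidase that also trims peptides from the carboxyl end, was the most abundant member in Kupffer cell-like cells. It measured 7490, 8396, 9161 and 5429 CPM in sets 1 to 4. Monocyte/macrophage-like cells had 2828, 3713, 2682 and 1431 CPM, so the ranges of these classes did not overlap. Plasmacytoid dendritic cell-like cells (1670, 1802, 2028 and 1474 CPM) and endothelial cell-like cells (1512, 1696, 1503 and 1944 CPM) came next, and both overlapped the monocyte/macrophage-like range. All other named classes with at least 3 sets were lower, from neutrophil-like cells (569 CPM) and hepatocyte-like cells (357 CPM, 131 to 533) to T cell-like (178 CPM), B cell-like (151 CPM) and basophil/mast cell-like cells (109 CPM). The unnamed cluster with Kupffer and endothelial markers had a median of 5269 CPM of Ctsb over 3 sets. With each cell thinned to 500 UMIs, a Ctsb UMI was found in 88.9% of Kupffer cell-like cells (95% exact interval 87.4 to 90.3%, 96.5% unthinned, median depth 1319 UMIs). In T cell-like cells, at a median of 1171 UMIs, the thinned share was 8.10% (7.0 to 9.31%, 23.5% unthinned).

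Ctsc (chr7:88278085-88310888, plus strand), the dipeptidyl peptidase that activates granule serine proteases, was the steadiest member in Kupffer cell-like cells. Its levels there were 1523, 1531, 1495 and 1550 CPM. Monocyte/macrophage-like cells had 695, 624, 680 and 653 CPM, and no other named class with at least 3 sets had a median above 162 CPM (dendritic cell-like cells). Endothelial cell-like cells were at the bottom, with 7.70, 23.9, 46.5 and 81.6 CPM. Both macrophage ranges lay apart from each other and from every named class below them.

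Ctsd (chr7:142375911-142388038, minus strand), the main aspartic protease of lysosomes, had another order. It measured 2607, 1477, 1182 and 2269 CPM in Kupffer cell-like cells and 1462, 1456, 844 and 1150 CPM in neutrophil-like cells, where it was the leading cathepsin in all 4 sets with 39.7 to 47.5% of the summed level. Monocyte/macrophage-like cells had 1415, 1010, 703 and 548 CPM, lower than neutrophil-like cells in every set, although the ranges overlap. NK cell/ILC1-like cells had 438 CPM (368 to 541) and T cell-like cells 262 CPM (217 to 283), and in both classes Ctsd led the members examined here in all 4 sets. Ctsw, a cathepsin outside these members, was above Ctsd in NK cell/ILC1-like cells of set 1 (737 against 502 CPM) and below it in the other sets. B cell-like (78.5 CPM), dendritic cell-like (71.2 CPM) and plasma cell-like cells (61.3 CPM) were the lowest.

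Ctsl (chr13:64359337-64370890, minus strand), a broad endopeptidase, was highest in cells that are not professional phagocytes. Endothelial cell-like cells had 1884, 1978, 1516 and 1176 CPM, and plasmacytoid dendritic cell-like cells 1359, 998, 1107 and 1011 CPM, lower in every set. The Krt8/Sox9 epithelial cluster had 968, 771 and 777 CPM in sets 2 to 4, where Ctsl was its leading cathepsin (29.4 to 44.5% of the sum). Kupffer cell-like cells had 640 CPM (363 to 785), hepatocyte-like cells 225 CPM and monocyte/macrophage-like cells 190 CPM. Dendritic cell-like cells had 51.7 CPM (27.9 to 71.1). The thinned share of cells with a Ctsl UMI was 46.0% (44.1 to 47.8%, 80.5% unthinned) among endothelial cell-like cells at a median of 1899 UMIs and 3.24% (2.54 to 4.06%, 8.01% unthinned) among T cell-like cells.

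Ctss (chr3:95526786-95556403, plus strand), the protease that cuts the invariant chain in B cells and dendritic cells, was at 3060, 2214, 2414 and 2529 CPM in monocyte/macrophage-like cells and at 3055, 2099, 2258 and 1933 CPM in Kupffer cell-like cells. These levels overlapped, with the former higher in all 4 sets and nearly equal in set 1. Dendritic cell-like cells (984 CPM, 746 to 1179), plasmacytoid dendritic cell-like cells (772 CPM) and B cell-like cells (414 CPM, 327 to 603) followed, and Ctss was the leading cathepsin of dendritic cell-like and B cell-like cells in all 4 sets. The Krt8/Sox9 epithelial cluster had the lowest median, 23.3 CPM.

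Ctsh (chr9:90054152-90076089, plus strand), an aminopeptidase, was highest in plasmacytoid dendritic cell-like cells, with 1415, 866, 883 and 1061 CPM. Kupffer cell-like cells (735 CPM), monocyte/macrophage-like cells (589 CPM) and dendritic cell-like cells (508 CPM) came next, each neighbour lower in all 4 sets but with overlapping ranges. B cell-like cells had 234 CPM (180 to 343). T cell-like (28.5 CPM) and NK cell/ILC1-like cells (28.3 CPM) did not differ beyond their spread.

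Ctsz (chr2:174427493-174439039, minus strand), a carboxypeptidase, was at 1015, 490, 468 and 664 CPM in monocyte/macrophage-like cells, the highest class in each set. Plasmacytoid dendritic cell-like (465 CPM), neutrophil-like (377 CPM), dendritic cell-like (362 CPM) and Kupffer cell-like cells (350 CPM) overlapped one another. Ctsa (chr2:164832873-164841032, plus strand), which protects lysosomal sialidase and beta-galactosidase, had similar levels in Kupffer cell-like cells (495, 360, 247 and 365 CPM) and monocyte/macrophage-like cells (366, 319, 336 and 299 CPM). The former were higher in sets 1, 2 and 4 and lower in set 3. Plasmacytoid dendritic cell-like cells (174 CPM) lay below both and above the remaining named classes with at least 3 sets.

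**Figure D2:**
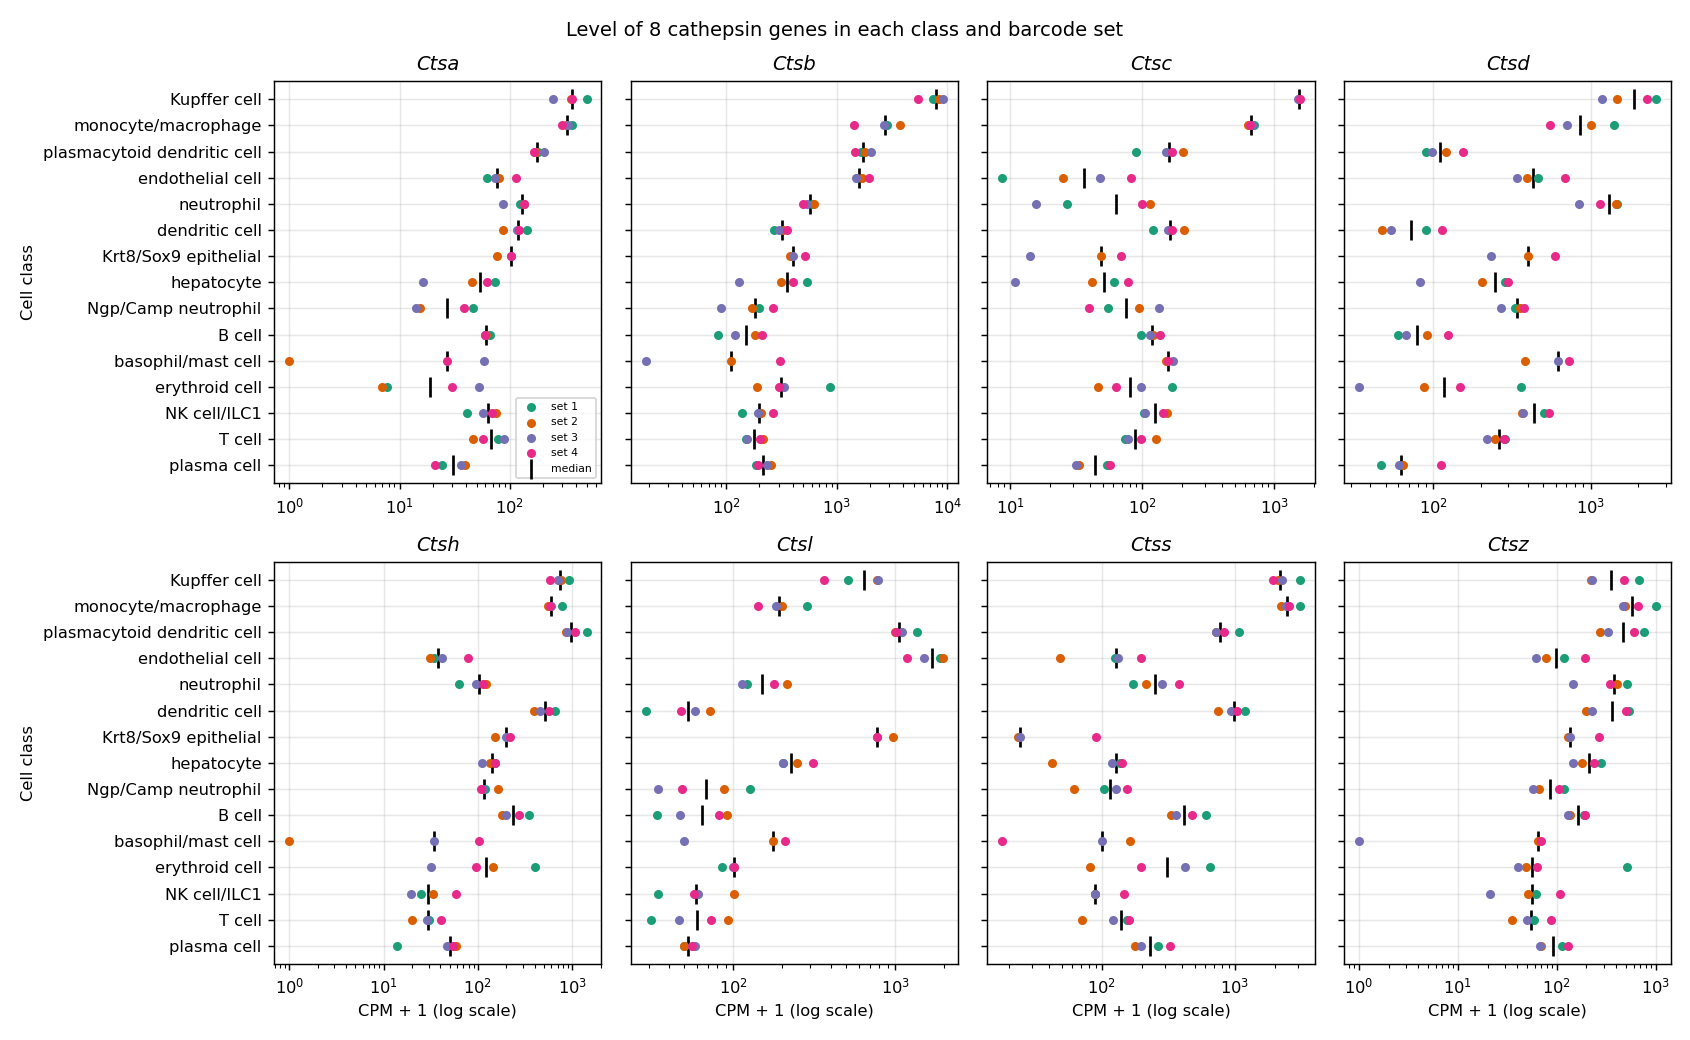
Level (CPM plus 1, log axis) of 8 cathepsin genes in each class, with 1 coloured point per barcode set and a black bar at the median. The 4 sets of Ctsc in Kupffer cell-like cells lie between 1495 and 1550 CPM, while Ctsz in the same cells spans 221 to 686 CPM.

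The remaining members were detected in few cells. Ctsg (chr14:56099881-56102574, minus strand), a protease of the primary granules of immature neutrophils, gave 873 UMIs in the Ngp/Camp neutrophil-like cluster, whose leading genes include Elane and Mpo. They came from 39 of its 147 cells, 717 of them in set 1 and 51, 65 and 40 in sets 2 to 4. The mean over cells was 565, 313, 335 and 329 CPM in sets 1 to 4. With the UMIs of all cells summed, which set 1 dominates, it was 894 CPM (exact Poisson interval 836 to 956, counting error only). The 1117 mature neutrophil-like cells had 1 UMI (0.722 CPM, 0.0183 to 4.02). Basophil/mast cell-like cells had 39 UMIs in 6 cells, 33 of them in set 1, and dendritic cell-like cells had 58 UMIs in 11 cells, 51 of them in set 1. None was counted in 2014 Kupffer cell-like cells, which allows a level of up to 0.716 CPM (3 UMIs).

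Ctse (chr1:131638306-131675505, plus strand), an aspartic protease of endosomes, gave 77 UMIs in 67 of 762 plasma cell-like cells (15, 13, 33 and 16 in sets 1 to 4), or 14.8 CPM (11.7 to 18.5). Erythroid cell-like cells had 40 UMIs in 13 of 274 cells, all in sets 1 (28) and 4 (12), or 34.8 CPM (24.9 to 47.4). Plasmacytoid dendritic cell-like cells had 16 UMIs. No UMI was counted in Kupffer cell-like cells (up to 0.716 CPM) or NK cell/ILC1-like cells (up to 1.82 CPM).

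In droplet data, free RNA puts UMIs of abundant genes into cells that do not make them. In T cell-like cells the Kupffer cell genes Clec4f, Cd5l, C1qa, C1qb and C1qc had 0.365 to 1.08% of their Kupffer cell-like level, and Ctsb had 2.29%. In B cell-like cells these 5 genes had 0.567 to 1.97% and Ctsb 1.74%. By these medians over sets, the share of Ctsb was above all 5 genes in T cell-like cells and within their range in B cell-like cells. It was also above them in NK cell/ILC1-like cells (2.28% against 0.543 to 1.75%) and plasma cell-like cells (2.79% against 0.364 to 1.38%). The values of single sets overlapped in each of these classes. In T cell-like cells they ran from 1.68 to 3.73% for Ctsb and from 0.679 to 2.98% for C1qb. The other 7 lysosomal members lay higher in T cell-like cells, at 3.52% (Ctsh) to 16.9% (Ctsz), with Ctsd at 14.5%. Ctsd reached 24.4% in NK cell/ILC1-like cells. In B cell-like cells Ctss had 17.8%, Ctsh 32.5% and Ctsz 48.7%. The part of free RNA from classes other than Kupffer cell-like cells was not tested.

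Pairs of classes were compared inside each barcode set by a log2 ratio, with 10 CPM added to both levels. Genes entered if the medians of both classes averaged 20 CPM or more. A gene is counted as higher or lower where the ratio was at least 2-fold in the same direction in every set. Of the 10 members, 8 passed the filter in each pair, and Ctse and Ctsg did not. These counts describe 1 table and carry no p-value.

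Kupffer cell-like cells had more Ctsb and Ctsc than monocyte/macrophage-like cells. Ctsb was 3.0-fold higher (log2 ratios 1.40, 1.18, 1.77 and 1.92 in sets 1 to 4) and Ctsc 2.27-fold higher (1.12, 1.28, 1.12 and 1.23). With 2 higher and 0 lower of 8, the members compare with 3.7% of 5196 tested genes higher and 2.48% lower. Ctsl was higher in every set but missed 2-fold in set 1 (log2 ratios 0.83, 1.90, 2.05 and 1.29). Ctsz was lower in every set (median log2 ratio -0.79, -1.11 to -0.48). The median over the 8 members was 0.53 and over all tested genes 0.17. Each call depended on a setting. With cells weighted by their UMIs Ctsc alone passed, and with each set centred on the median of its tested genes Ctsb alone passed. The lysosome gene list had 34 tested members, of which Grn, Lgmn and Creg1 were higher and none lower. Grn, a precursor of granulins that are cut by cathepsins, measured 2520 CPM against 727 CPM. Among 7 tested inhibitors Serpinb6a was higher, and Cst3, the secreted cystatin C, had 1256 CPM against 2192 CPM without reaching 2-fold in each set.

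Within the monocyte/macrophage-like class, 659 cells formed a cluster with Trem2 and Gpnmb among its leading genes (tumour macrophage-like) and 1714 cells a cluster led by Chil3, Lyz2 and Ccr2 (classical monocyte-like). The latter also held the patrolling marker Ace and sub-clusters with macrophage or B cell genes. Other sub-clusters had plasma cell genes (Igha and Jchain, 237 cells) or hepatocyte genes (Hao1 and Apoa4, 64 cells, and Serpina3k and Fabp1, 52 cells) among their leading genes. Ctsd was at 3346, 1604, 1321 and 1473 CPM in the tumour macrophage-like cluster and at 755, 509, 345 and 321 CPM in the monocyte cluster, 4.06-fold higher at the median. Ctsb was at 5890, 5549, 4583 and 3258 CPM against 1781, 2164, 1578 and 984 CPM, 3.08-fold higher. In both genes the ranges of the clusters did not overlap. With 2 of 8 members higher and 0 lower, 2.64% of 4846 tested genes were higher and 2.33% lower. A further 5 members, Ctsa, Ctsc, Ctsh, Ctsl and Ctss, were higher in every set without reaching 2-fold in all, and Ctsz was not (log2 ratio 0.15, -0.10 to 0.60). Among the lysosome genes, Cd63, Lgmn, Grn and Lipa were higher. Cd63 is also on the marker list of the tumour macrophage class. Of 6 tested inhibitors Serpinb6a was higher and the secreted Slpi lower (26.7 against 312 CPM). Of 13 tested substrates and partners Cd74 was higher (13780 against 4800 CPM) and Prdx6 lower.

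Set against Kupffer cell-like cells, the tumour macrophage-like cluster had no member 2-fold apart in every set. This pair was added after the levels had been seen, and 1.68% of tested genes were higher in the Kupffer class and 0.733% lower. In every set Ctsb (median log2 ratio 0.67, 0.35 to 1.0) and Ctsc (0.72, 0.51 to 0.83) were higher in the Kupffer class. Ctsz (-1.03, -1.20 to -0.48), Ctss (-0.45, -0.86 to -0.38) and Ctsa (-0.30, -0.81 to -0.06) were lower in every set. Ctsd did not keep 1 direction over the sets (-0.14, -0.36 to 0.62).

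In the classical monocyte-like cluster, 212 cells carried markers of patrolling monocytes (Ace, Cd300e, Ear2). Compared after the data had been seen, in sets 2 and 4, they had Ctsh at 166 and 272 CPM (5 and 102 UMIs). The 1243 cells of that cluster whose sub-clusters stayed unnamed had 492 and 556 CPM (log2 ratios -1.52 and -1.0). These 1243 cells were a mixture that included the sub-clusters with macrophage, B cell, plasma cell or hepatocyte genes and 282 cells led by Cd74 and H2-Ab1. Ctsh was the 1 member lower of 8 and none was higher, where 2.14% of 4857 tested genes were lower and 2.35% higher. Ctsb was higher in both sets (3144 and 1371 CPM against 1899 and 903 CPM) by less than 2-fold.

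Dendritic cell-like cells had less of most cathepsins than monocyte/macrophage-like cells. Ctsa, Ctsb, Ctsc, Ctsd, Ctsl and Ctss were lower, 6 of 8 members, and none was higher, where 5.15% of 4721 tested genes were lower and 1.59% higher. Ctsd had 89.6, 46.2, 52.8 and 113 CPM in dendritic cell-like cells, 12.7-fold lower than in the monocyte/macrophage-like class. Ctsb had 271, 330, 303 and 353 CPM, 9.32-fold lower. Ctsh came nearest to equal (log2 ratio -0.32, -0.50 to -0.04), and Ctsz had -0.96 (-1.27 to -0.41). The 32 tested lysosome genes had 6 lower (Lamp1, Lamp2, Lgmn, Laptm4a, Lipa and Atp6v1b2) and 0 higher, with a median of -0.98 against -0.10 over all tested genes. Inhibitors went both ways. Cst3 had 7171 CPM (5309 to 9474) against 2192 CPM and, with Serpinb6b and Serpinb9, was higher, while the intracellular stefin Cstb (190 against 666 CPM) and Slpi (26.3 against 237 CPM) were lower. Cst3 is also among the leading genes of the dendritic cluster and helped to form it.

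Sub-clusters of dendritic cell-like cells, compared after the data had been seen, differed among themselves. They were set against the 923 cells that stayed unnamed, which were a mixture. Among these, 76 cells had Siglech and Tcf4 among their leading genes, 73 had Top2a, 64 had Prtn3 and Gzmb, and 158 had Apoa5 and Apoa4. The 275 cells with markers of conventional type 1 dendritic cells (cDC1-like, Xcr1 among the leading genes) had Ctsh at 345, 164, 226 and 197 CPM against 709, 444, 514 and 632 CPM in the dendritic cell-like cells that stayed unnamed. Ctsa (24.9, 19.0, 27.6 and 31.8 CPM, from 5, 4, 9 and 14 UMIs) was lower as well, against 175, 116, 155 and 149 CPM. Both were 2-fold lower in every set, 2 of 8 members, where 2.32% of tested genes were lower and 0.953% higher. Ctss was lower in every set without reaching 2-fold in all (log2 ratio -1.21, -1.82 to -0.80). In 94 mature dendritic cell-like cells (Ccr7, Fscn1), over 3 sets, Ctsa was 0, 12 and 47.2 CPM in sets 2 to 4. These values come from 0, 1 and 5 UMIs, and the gene entered the comparison only through its level in the other cells, so nothing is read from its fold. Ctsh was not apart (610, 726 and 609 CPM, log2 ratio 0.45, -0.05 to 0.49). Here 6.44% of tested genes were lower and 5.91% higher.

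Plasmacytoid dendritic cell-like cells, which sense viral nucleic acids in endosomes, stood apart from dendritic cell-like cells in Ctsl and Ctsb. Ctsl was 17.4-fold higher (log2 ratios 5.18, 3.64, 4.06 and 4.17) and Ctsb 5.65-fold higher (2.58, 2.42, 2.7 and 2.03). These were 2 of 8 members, none was lower, and 7.14% of 4983 tested genes were higher and 4.78% lower. Ctsh missed the limit narrowly, at a median of 1.03 (0.91 to 1.13). Ctss and Ctsc were near equal or slightly lower (-0.24 and -0.04). Grn was higher (1610 against 238 CPM), as were Npc1 and the cysteine protease Ctso (76.5 against 12.7 CPM). Cst3 was lower (1123 against 7171 CPM), as was Cd74 (5863 against 20683 CPM). Against B cell-like cells, a pair added later, Ctsb, Ctsl, Ctsh and Ctsa were higher, 4 of 8 members, where 10.1% of tested genes were higher and 3.38% lower.

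**Figure D3:**
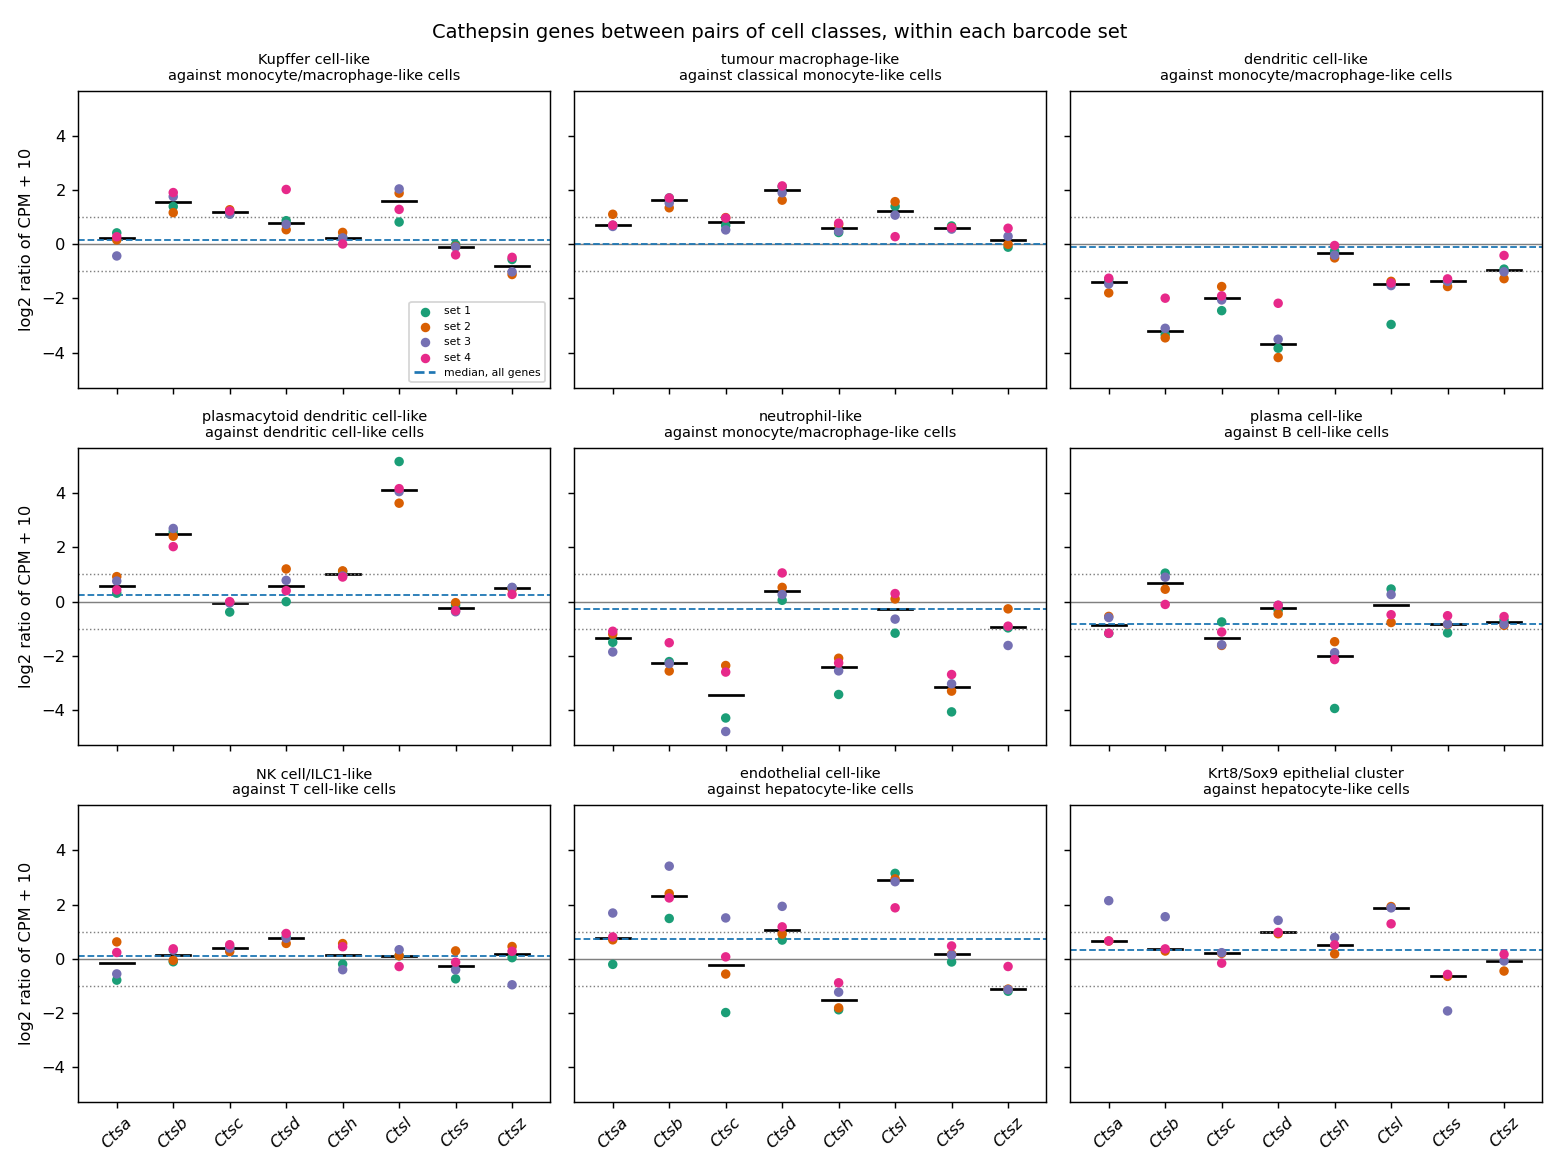
Log2 ratio of CPM plus 10 for 8 cathepsin genes in the 9 pairs of classes, with 1 coloured point per barcode set, a black bar at the median, dotted lines at 2-fold and a dashed blue line at the median of all tested genes. All points of Ctsl lie at 3.64 or higher in plasmacytoid against other dendritic cell-like cells, and all points of Ctsb and Ctsd at -1.99 or lower in dendritic against monocyte/macrophage-like cells.

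Neutrophil-like cells had less Ctsa, Ctsb, Ctsc, Ctsh and Ctss than monocyte/macrophage-like cells. These were 5 of 8 members with none higher, where 8.1% of 4482 tested genes were lower and 5.69% higher. Ctsc was at 25.7, 113, 14.7 and 98.7 CPM (11.0-fold lower) and Ctss at 172, 214, 284 and 381 CPM (9.04-fold lower). Ctsd was the exception, higher in every set without reaching 2-fold in all (log2 ratio 0.39, 0.05 to 1.06). With cells weighted by UMIs its median turned to -0.15. Among 32 lysosome genes 9 were lower and none higher, with Psap at 1159 against 6247 CPM and Npc2 at 229 against 1081 CPM. The inhibitors Slpi (3209 against 237 CPM), Stfa1 and Stfa2l1 were higher, and Stfa2l1 is a leading gene of that cluster. Srgn, the proteoglycan that packs granule proteases, was higher (5673 against 1382 CPM).

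**Figure D4:**
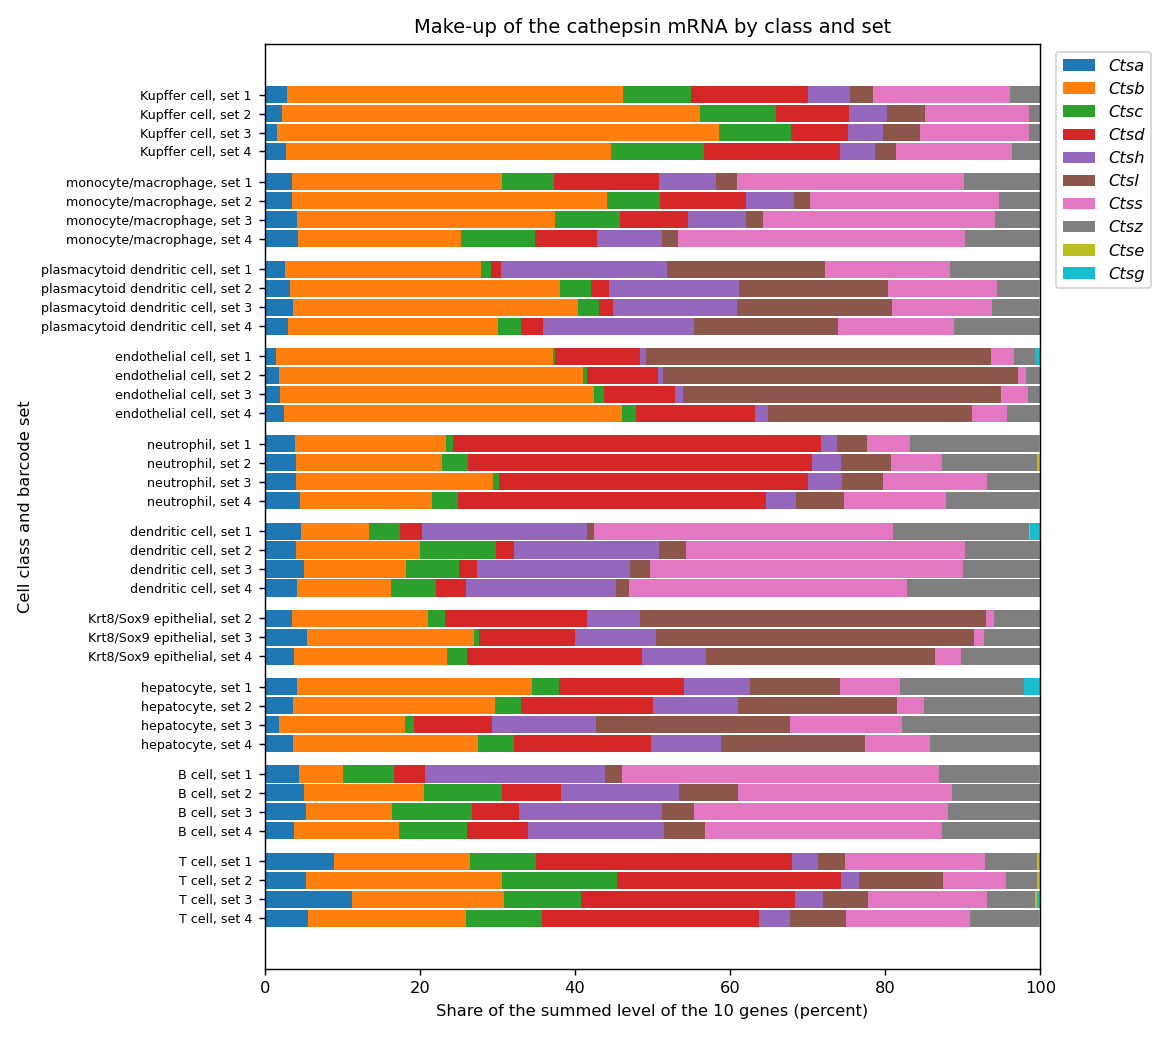
Share of each cathepsin gene in the summed level of the 10 genes, as 1 stacked bar per class and barcode set. Ctsd takes 39.7 to 47.5% in neutrophil-like cells, Ctsb 41.9 to 57.0% in Kupffer cell-like cells and Ctss 35.9 to 40.5% in dendritic cell-like cells.

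Among lymphocytes, plasma cell-like cells had less Ctsh than B cell-like cells (12.8, 57.9, 46.6 and 53.1 CPM against 343, 180, 200 and 269 CPM). It was the 1 member lower of 8, and 19.8% of 3891 tested genes were lower and 2.93% higher. The median of all tested genes was -0.82 in this pair and that of the members -0.80, and with each set centred on the median of its tested genes Ctsh did not pass. NK cell/ILC1-like cells had no member 2-fold apart from T cell-like cells, where 1.65% of 4837 tested genes were higher and 0.951% lower. Ctsd (502, 368, 373 and 541 CPM against 283, 245, 217 and 279 CPM) was 1.72-fold higher and Ctsc 1.33-fold higher, both in every set. Ctsw, a cathepsin of cytotoxic lymphocytes outside the 10 genes, was higher (376 CPM, 242 to 737, against 119 CPM), as was Serpinb9, an inhibitor of granzyme B.

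Endothelial cell-like cells had more Ctsl and Ctsb than hepatocyte-like cells. Ctsl was 7.45-fold higher (log2 ratios 3.15, 2.95, 2.85 and 1.88) and Ctsb 5.01-fold higher (1.49, 2.40, 3.42 and 2.25). These were 2 of 8 members with none lower, where 22.1% of 5728 tested genes were higher and 9.06% lower. That count is near the share over all genes, and the members' median log2 ratio was 0.45 against 0.71 for all tested genes. Ctsh was lower in every set (-1.53, -1.89 to -0.89), as was Ctsz (-1.13, -1.20 to -0.29). Without set 4 both were 2-fold lower as well, and the count became 4. Of 29 lysosome genes 9 were higher and none lower, with Psap at 1817 against 367 CPM. Tinagl1, a secreted relative of cathepsin B without protease activity, was at 831 CPM (724 to 947) in endothelial cell-like cells and 17.7 CPM in hepatocyte-like cells. Most endothelial cell-like cells of set 4 fell in other clusters than those of sets 2 and 3. Ctsl was 1341 CPM in the main cluster of set 4 and 1798 CPM in that of sets 2 and 3. The hepatocyte-like class also mixes 2 clusters, described below. In set 1 Ctsb was 1512 CPM in endothelial cell-like cells, 920 CPM in the Alb and Hpx cluster and 40.7 CPM in the other. Ctsl was 1884, 321 and 52.0 CPM there.

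Kupffer cell-like cells had more of every tested member except Ctsl than endothelial cell-like cells. In this pair, added after the levels had been seen, 7 of 8 members were higher, where 8.26% of 6129 tested genes were higher and 10.8% lower. Ctsl was the exception, lower in every set (log2 ratio -1.51, -1.86 to -0.94). The log2 ratio of Ctsc was 5.12 (4.09 to 6.44), that of Ctss 4.27 (3.23 to 5.20) and that of Ctsb 2.30 (1.48 to 2.60).

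The Krt8/Sox9 epithelial cluster, 813 cells with Krt8, Krt18 and Sox9 beside Hnf4a, had more Ctsl than hepatocyte-like cells. In sets 2 to 4 the log2 ratios were 1.93, 1.88 and 1.29, or 3.68-fold at the median. It was the 1 member higher of 8 and none was lower, where 8.27% of 5078 tested genes were higher and 4.17% lower. Ctsl no longer passed with cells weighted by their UMIs (log2 ratio 0.99). Ctsd was higher in each of the 3 sets (0.97, 0.92 to 1.42). The hepatocyte-like class mixes 2 clusters, described below. In set 3, 35 of its 50 cells were of the one led by Fabp1 and Gstm3. Over all cells, Ctsl was 847 CPM in the Krt8/Sox9 cluster, 402 CPM in the Alb and Hpx cluster and 111 CPM in the other. In set 4 the Ctsl values of the first 2 were 777 and 482 CPM. Against the Alb and Hpx cluster Ctsd was equal (401 CPM in both) and Ctsb lower (433 against 600 CPM). None of 29 lysosome genes passed in either direction. Spp1 (osteopontin), a leading gene of this cluster, had 7304 CPM against 189 CPM. Epithelial cells here had a median of 6208 UMIs and hepatocyte-like cells 1568 UMIs, and the part of this depth in the result was not tested.

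Hepatocyte-like cells were themselves of 2 kinds. A cluster of 609 cells led by Alb and Hpx had a median of 2514 UMIs and a cluster of 541 cells led by Fabp1 and Gstm3 a median of 1188 UMIs. In sets 1, 2 and 4, compared after the data had been seen, the former had Ctsb at 920, 436 and 575 CPM and the latter at 40.7, 138 and 230 CPM. Ctsd was at 463, 320 and 444 CPM against 55.9, 42.4 and 154 CPM, and Ctsl at 321, 357 and 482 CPM against 52.0, 92.3 and 143 CPM. These 3 of 8 members were higher and none lower, where 8.59% of 4121 tested genes were higher and 4.78% lower. The part of depth was not tested.

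**Figure D5:**
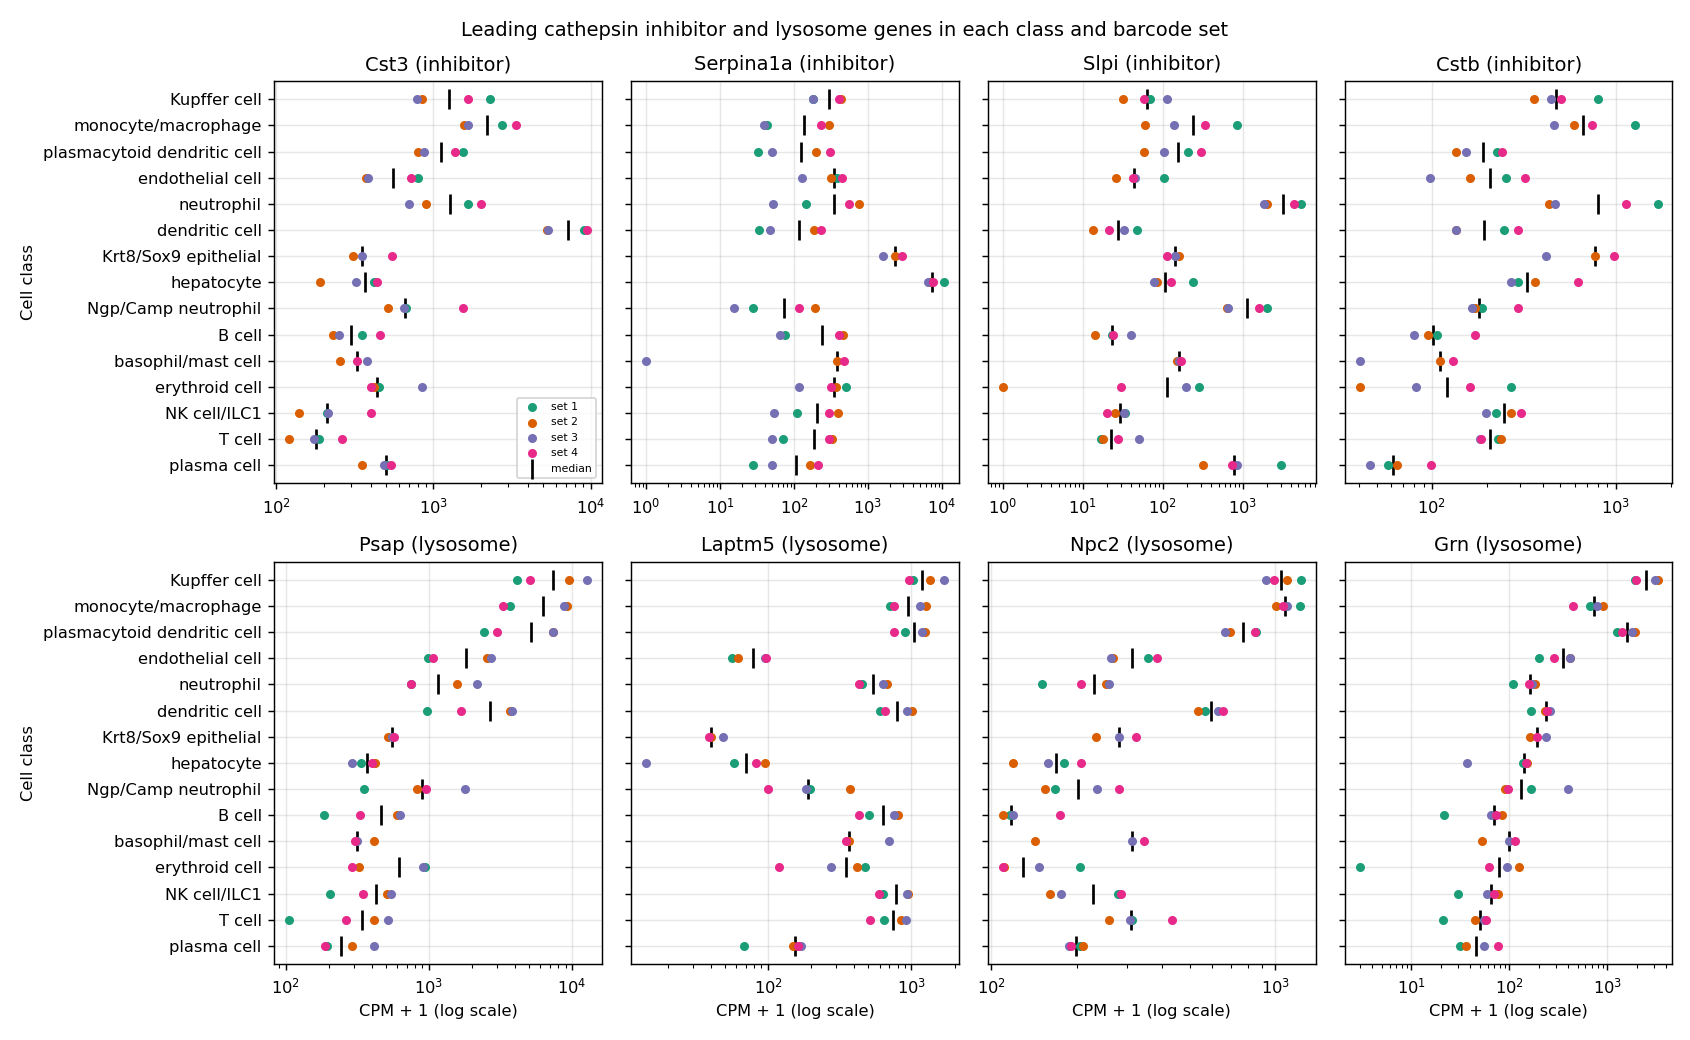
Level (CPM plus 1, log axis) of the 4 inhibitor genes and the 4 lysosome genes with the highest mean level of their lists, with 1 coloured point per barcode set and a black bar at the median. Cst3 is highest in dendritic cell-like cells (7171 CPM), Slpi in neutrophil-like cells (3209 CPM) and Grn in Kupffer cell-like cells (2520 CPM).

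Likeness of pattern was measured as Pearson's r of log2 (CPM plus 10) over 62 points, each a class in a barcode set, against 10907 genes. The points of 1 class share markers and those of 1 set share depth, so r is a description. Ctsb and Ctsa were most like Tcf7l2 (r = 0.88 and 0.79), Ctsc most like Adgre4 (0.81) and Ctsd most like Sat1 (0.79). Ctsl was most like Myo10 (0.83), Ctsh most like Pld4 (0.87) and Ctss most like Unc93b1 (0.85), and Irf5 and Ly86 were among the nearest 3 genes of both Ctsh and Ctss. Ctsz was most like Cd68 (0.80) and next Ctsh (0.79). Ctsg was most like Ms4a3, Elane and Mpo (0.93, 0.92 and 0.91). Among the members, Ctsl and Ctss had nearly unrelated patterns (0.05), as did Ctsl and Ctsc (0.05), while Ctsc and Ctss had 0.735.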

How the data were processed

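Single cells of 4 liver tumour samples were measured with the 10x 3′ v2 kit, per the labels' protocols. CASAVA 1.8, Cell Ranger and Seurat with mm10 are named in the submitters' processing notes, and no source used here gives the filters. The deposited values are natural log values. Exponentiated and less 1 they sum to 10000 per cell, and 100% are whole multiples of 1 UMI within 0.001, from which UMIs were recovered. No value in the table is tied to a sample, so the planned test between genotypes was not run. Depth was 9093921 to 35033778 UMIs per barcode set.

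Cells were clustered with scanpy 1.11.5 on 2000 variable genes, leaving out 15 cathepsin genes (30 components, 15 neighbours, Leiden resolution 1.0, seed 1), and named from 23 marker lists by their mean log2 fold and their place among the leading 10 genes. Scrublet called 6, 2, 0 and 1 doublets in sets 1 to 4, under 0.5% and so not a working call, and whether doublets were removed before deposit is unknown. No cell was removed. The levels, the filter (20 CPM), the pseudocount (10 CPM) and the 2-fold rule are described with the results. Poisson and Clopper-Pearson intervals (95%) reflect counting error alone, and 0 UMIs are given an upper limit of 3. The calculation was tested on simulated data. Named genes are the 10 members, the leading 4 genes by mean level in each of 4 lists (cathepsin inhibitors, lysosome genes, cathepsin substrates and partners, other cathepsins) and the 3 genes of most like pattern; further list members are named where they passed, and were chosen after their values were seen. Loci are from GENCODE vM21, which held 98.5% of the symbols, and promoters from RefSeq. The members and the lists were chosen with earlier results of these data known. Pairs described as added, and the sub-clusters, were chosen after seeing the data.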

Additional observations from a re-analysis of the deposited data

How the results depend on the processing

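No paired analysis was possible because the cells carry no sample and so no replicate number. Thinning each cell to 500 UMIs was applied only to the shares of cells with a UMI and is not in the tallies below. It lowered those shares, for Ctsb from 96.5 to 88.9% in Kupffer cell-like cells and from 23.5 to 8.10% in T cell-like cells. The other alternatives were pseudocounts of 1 and 50 CPM, no filter, a filter at 100 CPM, and cells weighted by UMIs. Further ones were cells with at least 500 genes, cells above 3 times the median UMIs left out, and Leiden resolutions 0.5 and 2.0. The last were cathepsins kept in the clustering, the median of all genes set to 0, and each set left out. Over these, 132 of 143 counts stayed within 1.5 times. Of 1146 values of single genes 54 moved, and no ratio counted as 2-fold in every set changed sign. Median ratios that were not so counted did for Ctsd in neutrophil-like cells (UMI weights), Ctsa, Ctsd, Ctsl and Ctsz in plasma cell-like cells (median set to 0), Ctss in endothelial cell-like cells (median set to 0, cells above 3 times the median left out) and Ctsc in the Krt8/Sox9 cluster (UMI weights, at least 500 genes, median set to 0). At resolution 0.5 no tumour macrophage-like cluster formed, so that pair was not run there, and Ctsg has no level at either resolution or with at least 500 genes, where no Ngp/Camp class held enough cells. In the Kupffer and monocyte/macrophage pair the members passing became 1 (Ctsc) with UMI weights and 1 (Ctsb) with the median set to 0. Between plasma and B cell-like cells they became 2 with UMI weights and with at least 500 genes (Ctsc added), 0 with cathepsins kept in the clustering and 0 with the median set to 0, and 1 to 2 with a set left out (2 without set 1). Between endothelial and hepatocyte-like cells they were 2 to 4 with a set left out (4 without set 4). For the Krt8/Sox9 cluster they became 0 with UMI weights and 2 without cells above 3 times the median (Ctsd added). The genes highest in the same class in every set became 5 without those cells (8 in the main values). In small classes a level of 1 CPM rests on few molecules.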

Other observations

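The level of Ctsz differed between barcode sets in the same order in nearly every class, which is given here as values because no set is tied to a sample. By the median over all cells, sets 1 and 4 were the deeper sets and sets 2 and 3 the shallower. Ctsz was higher in both sets 1 and 4 than in both sets 2 and 3 in 12 of 13 classes with a value in every set. Neutrophil-like cells were the exception. In dendritic cell-like cells it measured 534, 198, 227 and 498 CPM in sets 1 to 4, in Kupffer cell-like cells 686, 221, 227 and 474 CPM, and in plasmacytoid dendritic cell-like cells 764, 276, 331 and 600 CPM. In hepatocyte-like cells it measured 282, 181, 145 and 239 CPM. Depth inside a class could differ from that of the whole set. Hepatocyte-like cells had a median of 1024, 2585.5, 687.5 and 1784 UMIs in sets 1 to 4. In the Ngp/Camp neutrophil-like class set 2 (3842 UMIs) was deeper than set 4 (3289 UMIs). Over all genes at 20 CPM or more, 14.1 to 30.9% showed the order of Ctsz in a given class, and 19.8 to 44.4% the opposite order. These percentages are for 1 class at a time. The share of all genes with the order in 12 of 13 classes was not computed, and Ctsz was picked as the member with the most such classes. Ctss showed the order of Ctsz in 8 of 13 classes and Ctsd in 7 of 13, neither with the opposite order in any. Ctsl never showed it and had the opposite order in 3. Ctsb had the order in 2 classes and its opposite in 3, and in Kupffer cell-like cells its lowest value was in set 4 (5429 CPM). The part of sequencing depth in this order was not tested.

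Ctsf, a cysteine protease outside the 10 genes, was at 89.3 CPM (49.8 to 125) in Kupffer cell-like cells and at 5.93 CPM in monocyte/macrophage-like cells, higher by a log2 ratio of 2.39 (1.96 to 2.92). In 48 stellate/fibroblast-like cells, which had a value in set 3 only, Ctsl led the members with 995 CPM, 43.9% of their sum. Erythroid cell-like cells of set 1 stood above those of the other sets in Ctsb (875 CPM against 188 to 331 CPM) and Ctsz (516 CPM against 39.3 to 62.0 CPM).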
